A study of Mus musculus with 2 samples.

Results

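A set of 10 genes that lymphocytes use to signal to or kill other cells was followed through the immune cells of the mouse liver. Ifng, Tnf, Il2, Il4, Il10, Csf1 and Csf2 encode secreted cytokines, Fasl and Tnfsf10 encode the death ligands FasL and TRAIL, and Ltb encodes lymphotoxin-β, the membrane anchor of the lymphotoxin heterotrimer. They were chosen by name, with earlier results of these data known, as 10 of the 13528 genes in the filtered table. All 10 were found there with UMIs in both genotypes. CD45+ liver cells were captured with the BD Rhapsody system, which counts transcripts and antibody-linked oligonucleotides of each cell by unique molecular identifiers (UMIs). In TG (dnTGFβRII) mice the mouse CD4 promoter drives a human TGF-β type II receptor that is dominant negative, so T cells carry it, and the strain is used to model primary biliary cholangitis (PBC). The controls are wild type mice, WT below. Each of the 2 libraries pooled 2 genotypes on the C57BL/6 strain at a labelled age of 10 weeks. IFN-γ ARE-Del-/- mice shared the first pool with dnTGFβRII mice, and P40-/-IL-2Ra-/- mice shared the second with wild type mice. The labels give no treatment and do not say how many animals went into a pool. The cell table names 4647 TG cells, all from the first pool, and 7282 WT cells, all from the second. The other 5379 and 16829 cells carry no genotype name and are called unnamed here. Each genotype is 1 library, so differences carry no test. Genotype and library cannot be told apart in any TG and WT difference below.

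Interferon-γ, the product of Ifng, is released by T, NKT and NK cells and induces antigen presentation and inflammatory genes in its targets. FasL and TRAIL trigger apoptosis in cells that carry their receptors, and liver NK and T cells are known for both. The mRNAs of many cytokines are short-lived because AU-rich elements in their 3′ untranslated regions (3′ UTRs) recruit decay factors such as tristetraprolin (Zfp36). IFN-γ ARE-Del mice lack such an element in Ifng, which is why the 3′ UTRs are shown first.

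All 10 genes are protein-coding. In GRCm38 with the GENCODE annotation, Ifng lies at chr10:118441046-118445892, Tnf at chr17:35199381-35202007 and Ltb at chr17:35194439-35196320. Il2 lies at chr3:37120523-37125959, Csf1 at chr3:107741048-107760469 and Tnfsf10 at chr3:27317028-27342427. Il4 at chr11:53602982-53618669 and Csf2 at chr11:54247271-54249667 share a chromosome, as do Fasl at chr1:161780689-161788495 and Il10 at chr1:131019845-131024974. The core of an AU-rich element is the pentamer ATTTA in DNA letters. Csf2 held 9 pentamers in a 3′ UTR of 317 bases, Tnf 8 in 764, Il2 7 in 581, Ifng 6 in 631 and Il10 6 in 706. Il4 held 2 in 104 bases, Csf1 4 in 2111, Tnfsf10 8 in 3998 and Fasl 1 in 887, while Ltb held none in 174. Over 20963 protein-coding genes the median was 1.23 pentamers per 1000 bases. The 5 genes with at least 6 pentamers in under 1000 bases therefore ranged from 8.50 per 1000 bases in Il10 to 28.4 in Csf2. A 9-base form made of overlapping pentamers occurred 5 times in Csf2, 2 times in Tnf and 1 time in Il2, and in 6.14% of all genes. The densest 30 bases of 4 of these 3′ UTRs are printed because they show AU-rich sequence of the kind removed from Ifng in the ARE-Del strain, beside its form in the other cytokines. Which bases that strain lacks was not examined here. Capitals mark the pentamers, which overlap in the runs, and the strand is that of the gene.
Ifng 3′ UTR, chr10:118445333-118445362, GRCm38, plus strand: ctATTTAttaatATTTAaaactATTTAtat
Tnf 3′ UTR, chr17:35199677-35199706, GRCm38, minus strand: tATTTAttATTTATTTAttATTTATTTAtt
Il2 3′ UTR, chr3:37121039-37121068, GRCm38, minus strand: tATTTATTTAaatATTTAactttaATTTAt
Csf2 3′ UTR, chr11:54247324-54247353, GRCm38, minus strand: aaatATTTATTTATTTATTTATTTAttttt
The Ifng stretch held 3 separate pentamers, and those of Tnf and Csf2 held 5 each with overlap. The pentamers are matches of letters in the annotation and no measurement of decay.

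The promoters of Ifng and Fasl are shown because these were the 2 members whose levels ran closest together across clusters, as described below. The RefSeq windows hold 250 bases before and 50 after the start in GRCm38.p6. Capitals mark GGAAA or its reverse complement, the core bound by NFAT factors after T cell receptor signalling, and the TATA box TATAAA.
Ifng promoter, chr10:118440796-118441095, GRCm38.p6, plus strand: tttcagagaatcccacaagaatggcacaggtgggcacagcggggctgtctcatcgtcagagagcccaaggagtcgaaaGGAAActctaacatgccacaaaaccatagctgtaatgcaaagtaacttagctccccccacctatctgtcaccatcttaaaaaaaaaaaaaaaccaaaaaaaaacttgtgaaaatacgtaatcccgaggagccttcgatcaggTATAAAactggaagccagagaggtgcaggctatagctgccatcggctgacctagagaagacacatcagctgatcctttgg
Fasl promoter, chr1:161788446-161788745, GRCm38.p6, minus strand: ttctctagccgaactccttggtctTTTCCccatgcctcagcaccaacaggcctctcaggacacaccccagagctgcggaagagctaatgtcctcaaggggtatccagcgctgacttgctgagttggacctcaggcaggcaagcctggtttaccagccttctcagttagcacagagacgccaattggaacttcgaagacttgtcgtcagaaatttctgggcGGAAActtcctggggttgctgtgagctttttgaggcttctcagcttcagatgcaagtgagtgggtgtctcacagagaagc
Ifng held 1 GGAAA match and a TATAAA 30 bases before the start, and Fasl held 2 GGAAA matches and no TATAAA. Of 32851 promoters of the same length, 61.3% held GGAAA on either strand and 8.32% held TATAAA. The AP-1 motif TGANTCA was in neither, against 7.81% of all promoters. A TATAAA was also found in Tnf and Il2 and in no other of the 9 genes with a promoter entry.

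The data and the names of the cells need a description before the levels. TG cells held 18498477 UMIs with a median of 3298 per cell, and WT cells 22216379 with a median of 2653.5. Levels are counts per 1000000 summed UMIs (CPM) with exact Poisson 95% intervals, and log2 ratios have exact 95% intervals. All intervals cover counting error only, not differences between animals. The 2 library files share 267 cell indexes, 36 of them among named cells. Cell types are those of the deposited annotation, and several went against their markers. Of annotated NK cells, TG clusters 3 and 11 held Cd3e, a chain of the T cell receptor complex, at 1496 CPM, where WT cells of the same clusters held 123 CPM. Only cluster 8 was low in both, at 133 (TG) and 67.5 CPM (WT). Annotated monocytes held neutrophil genes, with S100a8 at 16444 CPM and Csf3r at 2908 CPM. Annotated immature B cells held Vpreb3 at 29.5 CPM, against 181 CPM in mature B cells. Cluster 17 of the mature B cells held Cd3e (728 CPM in TG, 609 CPM in WT) beside Cd79a (2456 and 1954 CPM), and Scrublet called 22 of its 29 TG and 113 of its 155 WT cells as doublets. CD8αα T cells of WT held Trdc, a γδ receptor gene, at 855 CPM, and those of TG at 95.1 CPM. These names are kept below as names only.

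In the T and NK types as annotated, most cells held at least 1 of the 10 transcripts. At least 1 was detected in 86.0% of 2890 TG cells and 84.2% of 4786 WT cells. Ltb was the most widely detected of the 10, in 59.0% of all TG and 55.4% of all WT cells of the table. Shares with Ltb left out were not examined. At least 3 were detected in 48.4% of TG NKT cells, 37.6% of TG CD8αα T cells and 16.7% of TG CD8αβ T cells. In WT the shares were 28.2%, 27.8% and 9.40%. NK cells went the other way, with 13.6% in TG and 18.7% in WT. TG cells were deeper in each of these types, at medians of 3851.5 against 2860.5 UMIs in NKT, 4557 against 2996 in CD8αβ T, 3168.5 against 2702 in CD8αα T and 2813 against 2473 in NK cells, and the part of depth was not tested.

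**Figure D1:**
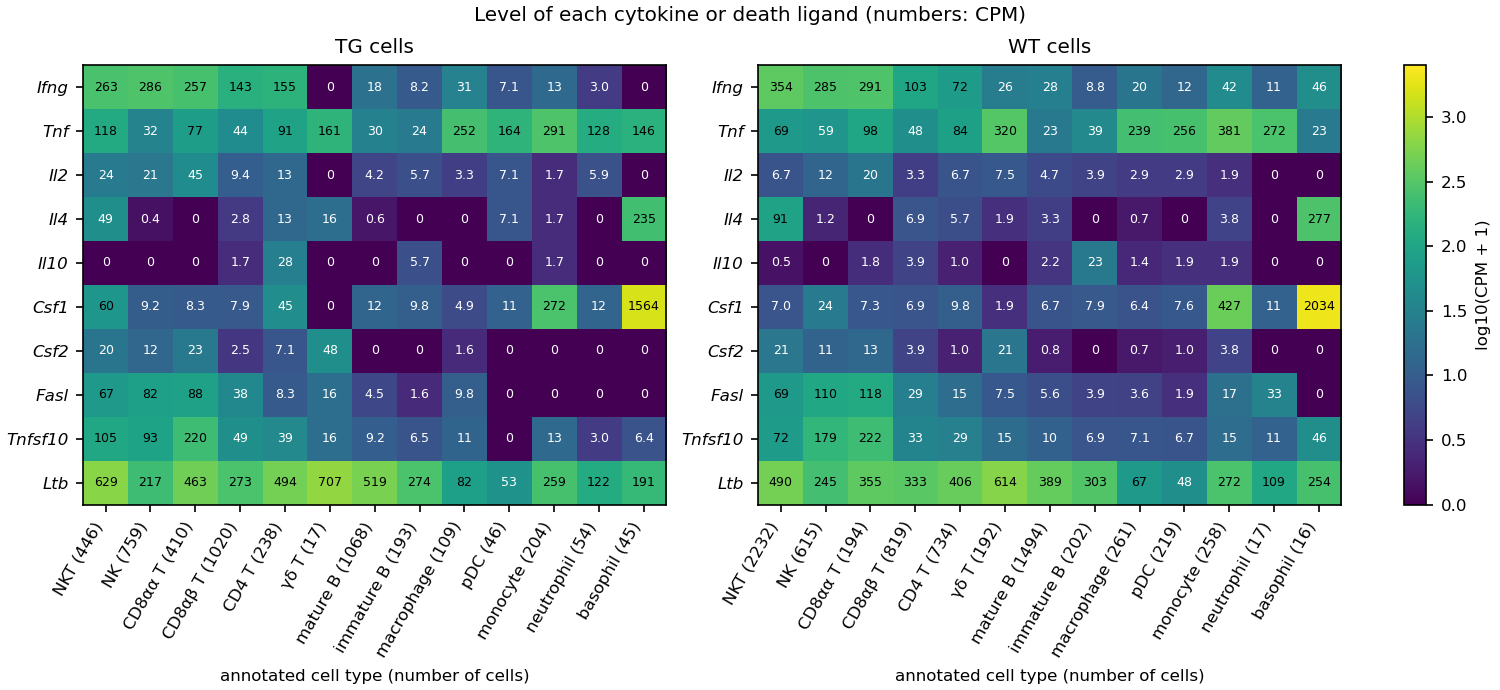
Level of each of the 10 genes (rows) in each annotated cell type (columns, with cell numbers) of TG (left) and WT (right), coloured by log10(CPM + 1) with the CPM printed in each field. Ifng, Fasl and Tnfsf10 are brightest in NKT, NK and CD8αα T cells, Csf1 in basophils (1564 CPM in TG, 2034 CPM in WT), and Tnf in annotated monocytes, macrophages, γδ T cells and pDC.

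Ifng was a transcript of innate-like and cytotoxic lymphocytes. With both genotypes summed, NKT cells were highest at 335 CPM (322 to 347). NK cells at 285 CPM and CD8αα T cells at 267 CPM followed with overlapping intervals, then CD8αβ T cells at 128 CPM and CD4 T cells at 97.1 CPM. NKT cells held 2338 of the 3605 Ifng UMIs of WT, but 464 of the 2447 of TG, where CD8αβ T cells held 756 and NK cells 652. In TG the level was 263 CPM in 446 NKT cells, 286 CPM in 759 NK cells, 257 CPM in 410 CD8αα T cells, 143 CPM in 1020 CD8αβ T cells and 155 CPM in 238 CD4 T cells. In WT it was 354, 285, 291, 103 and 71.9 CPM, in the same order. An Ifng UMI was found in 50.2% of TG and 47.8% of WT NKT cells. In mature B cells the shares were 4.59% in TG and 4.28% in WT, at medians of 2923 and 2044.5 UMIs per B cell. Mature B cells without cluster 17 held 11.01 CPM in TG and 7.33 CPM in WT.

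One WT cell decided the highest cluster value. NKT cluster 19 held 631 CPM in 127 WT cells, but 182 of its 303 UMIs came from a single cell with 4312 UMIs in all. Without that cell the cluster stood at 254 CPM (211 to 304), near the 246 CPM of 20 TG cells, and all WT NKT cells at 327 CPM. Among CD8αβ T cells the level followed the cluster: 77.6 CPM in TG and 20.98 CPM in WT cells of cluster 4, but 287 and 191 CPM in cluster 12. Ifng was thus spread unevenly inside a single annotated type.

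**Figure D2:**
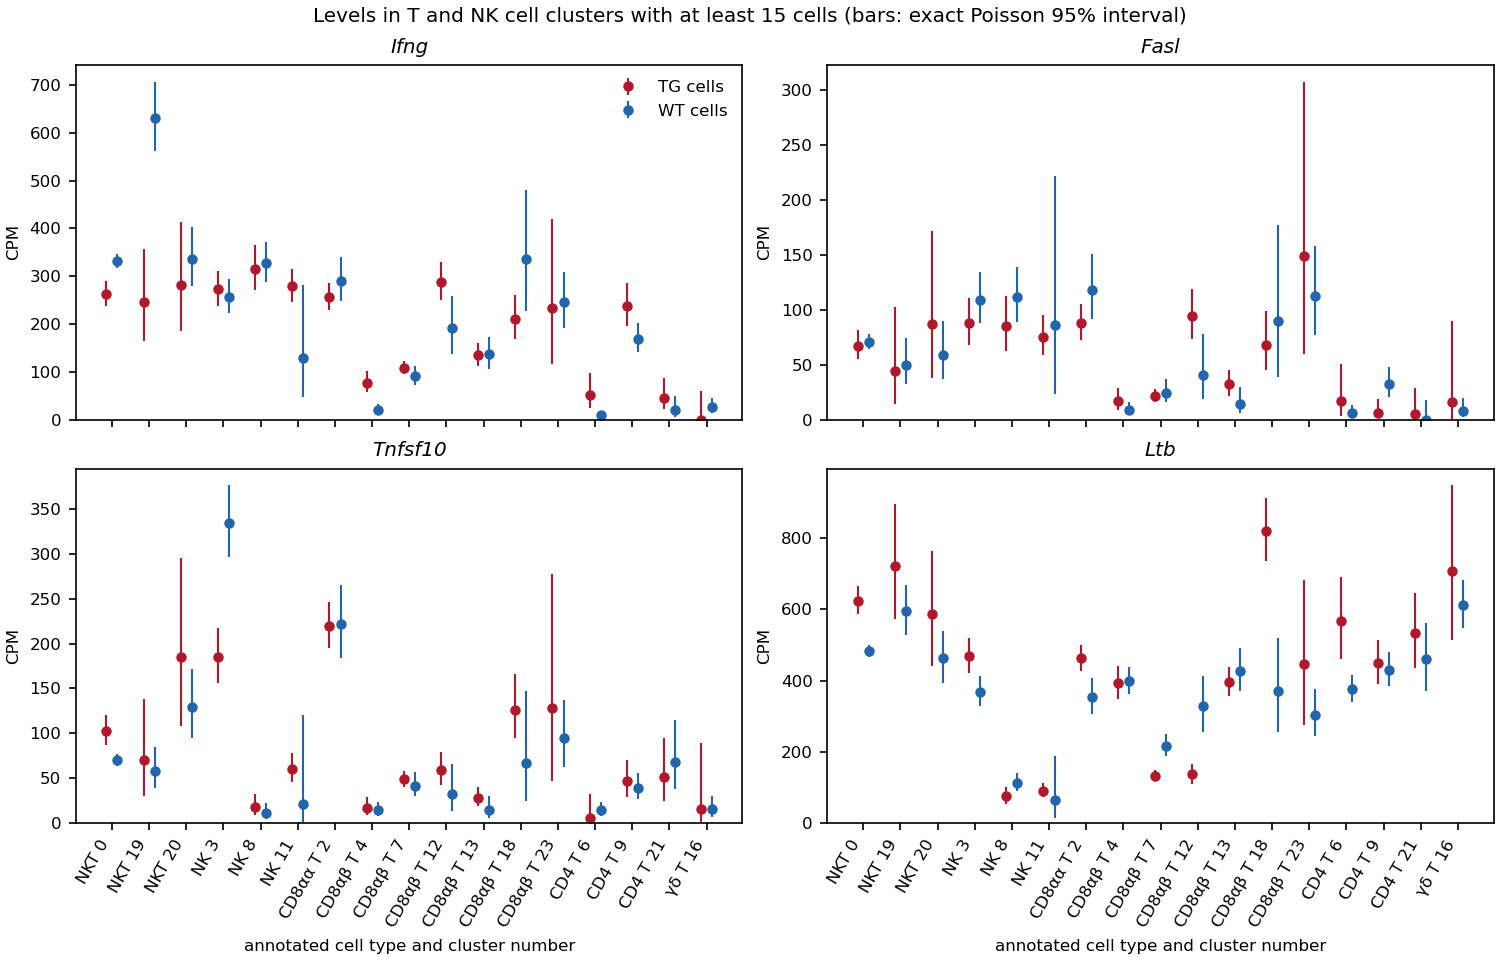
CPM of Ifng, Fasl, Tnfsf10 and Ltb (panels) in each T and NK cluster with at least 15 cells, TG in red and WT in blue, bars being exact Poisson 95% intervals. Ifng in WT cluster 19 rests on 1 cell with 182 UMIs, and Tnfsf10 separates NK cluster 3 (185 CPM in TG, 335 CPM in WT) from NK cluster 8 (17.7 and 11.02 CPM).

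The death ligands were highest in the same lymphocyte types as Ifng, and Tnfsf10 differed between clusters of NK cells. Fasl was highest in CD8αα T cells at 96.6 CPM and NK cells at 93.4 CPM, whose intervals overlap, followed by NKT cells at 68.3 CPM and CD8αβ T cells at 34.3 CPM. Tnfsf10 was highest in CD8αα T cells at 220 CPM (200 to 243), above NK cells at 129 CPM and NKT cells at 79.1 CPM. The order of the last pair came from WT, with 179 CPM in NK and 72.2 CPM in NKT cells, while TG held 92.9 CPM in NK and 105 CPM in NKT cells. A Tnfsf10 UMI was present in 46.1% of TG and 41.2% of WT CD8αα T cells, against 1.97% and 2.01% of mature B cells. Within NK cells Tnfsf10 varied by cluster. Cluster 3 held 185 (TG) and 335 CPM (WT), the 343 TG cells of cluster 11 held 60.36 CPM, and cluster 8 held 17.7 CPM (10 UMIs) and 11.02 CPM (8 UMIs). Fasl showed no such spread, with 87.4 (TG) and 109 CPM (WT) in cluster 3 and 84.9 (TG) and 112 CPM (WT) in cluster 8. Ifng in cluster 8 was 315 CPM in TG and 328 CPM in WT. Cluster 8 was also the one with Eomes, a transcription factor of conventional NK cells, at 391 and 692 CPM, against 55.9 and 37.5 CPM in clusters 3 and 11.

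Surface protein was set beside these transcripts. CD49a is an integrin chain carried by tissue-resident NK and T cells. Among WT NK cells, the median deposited antibody value of CD49a (a natural-log centred ratio) was 3.26 in the 178 cells with a Tnfsf10 UMI and 0.70 in the 437 without. Cells with an Ltb UMI had a median of 3.04 against 0.83, and cells with a Tnf UMI 3.13 against 1.35. For Ifng the difference was small and opposite, at 1.73 against 2.04. TG NK cells were high with or without a Tnfsf10 UMI, at 3.31 and 3.06. In TG CD8αβ T cells the CD49a median was 2.28 with a Tnfsf10 UMI and 0.96 without, 1.84 and 0.92 for Ifng, and in the other direction for Ltb, 0.84 with and 1.89 without. CD44, which marks antigen-experienced T cells, was 3.16 with and 2.00 without an Ifng UMI in WT CD8αβ T cells, and 3.44 and 2.27 in WT CD4 T cells. In TG the medians were close, at 3.28 and 3.20 in CD8αβ T cells and 3.49 and 3.35 in CD4 T cells. Cells with a UMI were often deeper, for example 4098 against 2879 UMIs in the WT CD8αβ comparison of Ifng, and the part of depth in these differences was not tested. Cells with and without a UMI also came from different clusters. Of the 288 Tnfsf10 UMIs of WT NK cells, cluster 3 held 279 and cluster 8 held 8. The part of the clusters was not tested.

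Ltb had a different map. It was highest in γδ T cells at 624 CPM (562 to 690), then in NKT cells at 519 CPM, and mature B cells came next at 452 CPM, close to CD4 T cells at 432 CPM and CD8αα T cells at 431 CPM, whose intervals overlap it. NK cluster 8 was low, at 74.3 (TG) and 113 CPM (WT), against 264 and 353 CPM in clusters 3 and 11. CD8αβ T cluster 18 held 822 CPM in 115 TG cells and 370 CPM in 37 WT cells, and cluster 12 held 136 and 328 CPM. So Ltb differed up to several fold between clusters that carried a single cell type name, and in either direction between genotypes.

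Tnf had its highest levels in myeloid and γδ T cells. Annotated monocytes held 333 CPM, γδ T cells 303 CPM, macrophages 243 CPM and pDC 237 CPM, with neighbours in this order overlapping. NKT cells held 118 CPM in TG and 69.0 CPM in WT, and NK cells 32.4 and 58.5 CPM. The γδ T cells, which also led for Il17a at 288 CPM, held Ifng at 26.4 CPM in WT (14 UMIs in 192 cells) and none in 17 TG cells, which allows a share of up to 17.6% of cells with a UMI (3 counts taken as the limit of a count of 0).

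Csf1, the macrophage growth factor, had its highest level in basophils. The 45 TG basophils held 1564 CPM and the 16 WT basophils 2034 CPM, and a UMI was found in 41 of 45 and 16 of 16. Annotated monocytes were second at 344 CPM, and every other type had 20.4 CPM or less with genotypes summed. By count, annotated monocytes held 386 Csf1 UMIs, basophils 334 and NKT cells 152. Il4, the type 2 cytokine, was also highest in basophils, at 235 (TG) and 277 CPM (WT). NKT cells, the other classical source of early Il4, came next at 81.8 CPM, and they held 599 of the 663 Il4 UMIs of WT and 86 of the 156 of TG.

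Il2, Il10 and Csf2 were rare. Il2, the T cell growth factor, was highest in CD8αα T cells at 37.3 CPM (29.1 to 47.2), above NK cells at 17.5 CPM. Csf2, which encodes GM-CSF, was 23.6 CPM in γδ T cells, 21.03 CPM in NKT cells, 19.7 CPM in CD8αα T cells and 11.8 CPM in NK cells, and these neighbours overlap. Il10, an inhibitory cytokine, had only 41 UMIs in TG and 54 in WT. CD4 cluster 21, which held the regulatory T cell factor Foxp3 at 923 (TG) and 953 CPM (WT), carried 23 of the TG UMIs in 48 cells and 2 of the WT UMIs in 65 cells. Annotated immature B cells carried 23 of the WT UMIs. A single WT CD8αβ T cell of cluster 23 held 10 more.

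The genes whose cluster pattern was most like each member were named by Pearson correlation of log2(CPM + 10) over 26 clusters with at least 50 cells, with both genotypes summed, among 9776 genes. The clusters share libraries and depth, and the values are a description. Ifng was nearest to Gm19585 (0.94), Tbx21 (0.94), which encodes the transcription factor T-bet, and AW112010 (0.94). Fasl was nearest to Nkg7 (0.93) and Ctsw (0.93), both of cytotoxic granules, and to X2510039O18Rik (0.91). Tnfsf10 was nearest to Abcb9 (0.93), Pvrig (0.92) and Pglyrp2 (0.92). Il10 was nearest to Ctla4 (0.85), Lclat1 (0.77) and Foxp3 (0.73), and Csf2 to Tcrg.C4 (0.91), Tcrg.V1 (0.91) and Spin2c (0.86). Il2 was nearest to Mical2 (0.85), B3galt5 (0.85) and Trip4 (0.81). Ltb was nearest to Carmil2 (0.82), Itpr2 (0.81) and Il27ra (0.80), Csf1 to Plk3 (0.84), Alox15 (0.83) and Ifitm1 (0.83). The weakest likenesses were those of Il4, with Aqp9 (0.76), Pdcd1lg2 (0.75) and Kcnq5 (0.74), and of Tnf, with Cd44 (0.72), Myd88 (0.71) and Smox (0.70). Among the members, Ifng correlated with Fasl at 0.93, with Tnfsf10 at 0.80 and with Csf2 at 0.70, and with Tnf at -0.26.

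Within a type, some members fell in the same cells more often than their shares multiply to. In WT CD8αβ T cells, 35 of 819 cells held both Ifng and Fasl, where the product of the shares gives 16.4 cells. In WT CD4 T cells, 28 of 734 held Ifng and Tnf, where the product gives 11.6, but in TG CD4 T cells 11 of 238 did, where it gives 11.7. In NK cells Tnfsf10 and Ltb shared 72 TG cells against 46.3, and 92 WT cells against 63.1. Ifng and Fasl in TG CD8αβ T cells shared 74 cells against 58.1, and Ifng and Tnf in TG NKT cells 61 against 62.3. The CD8αβ T cells of WT with both Ifng and Fasl were deeper, at a median of 4922 UMIs against 2996 in the type, but the CD4 cells with both Ifng and Tnf were not, at 2395 against 2437.5. Clusters within a type differed too. In NK cluster 3, Tnfsf10 was 185 (TG) and 335 CPM (WT), and Ltb 469 and 369 CPM. In NK cluster 8 both were lower, at 17.7 and 11.02 CPM for Tnfsf10 and 74.3 and 113 CPM for Ltb. In WT CD8αβ T cells, Ifng and Fasl were 20.98 and 8.58 CPM in cluster 4. In cluster 12 they were 191 and 40.98 CPM. In WT CD4 T cells, Ifng and Tnf were 10.01 and 40.05 CPM in cluster 6, and 169.5 and 156 CPM in cluster 9. The product of shares takes no account of such a mix. The parts of depth and of the clusters were not tested.

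The first comparison asked where TG and WT cells of a single type differed. At least 50 cells in each genotype were present in 9 types, which gave 90 pairs of a member and a type, and 70 pairs had at least 10 UMIs. A ratio past 2-fold was found in 15 of them (21.4%), 9 higher and 6 lower in TG. With cells thinned to 1000 UMIs it was 8 higher and 2 lower, and with pairs of at least 1 UMI 10 higher and 16 lower. Over all genes, 9083 of 87600 pairs (10.4%) passed 2-fold, 5.57% higher and 4.79% lower in TG. It was 10.1% when genes set to 0 in one genotype by the authors' filter were left out. The median log2 ratio was -0.01 over the 70 member pairs and 0.01 over all pairs. For 12 of the 15 the interval excluded a ratio of 1.

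**Figure D3:**
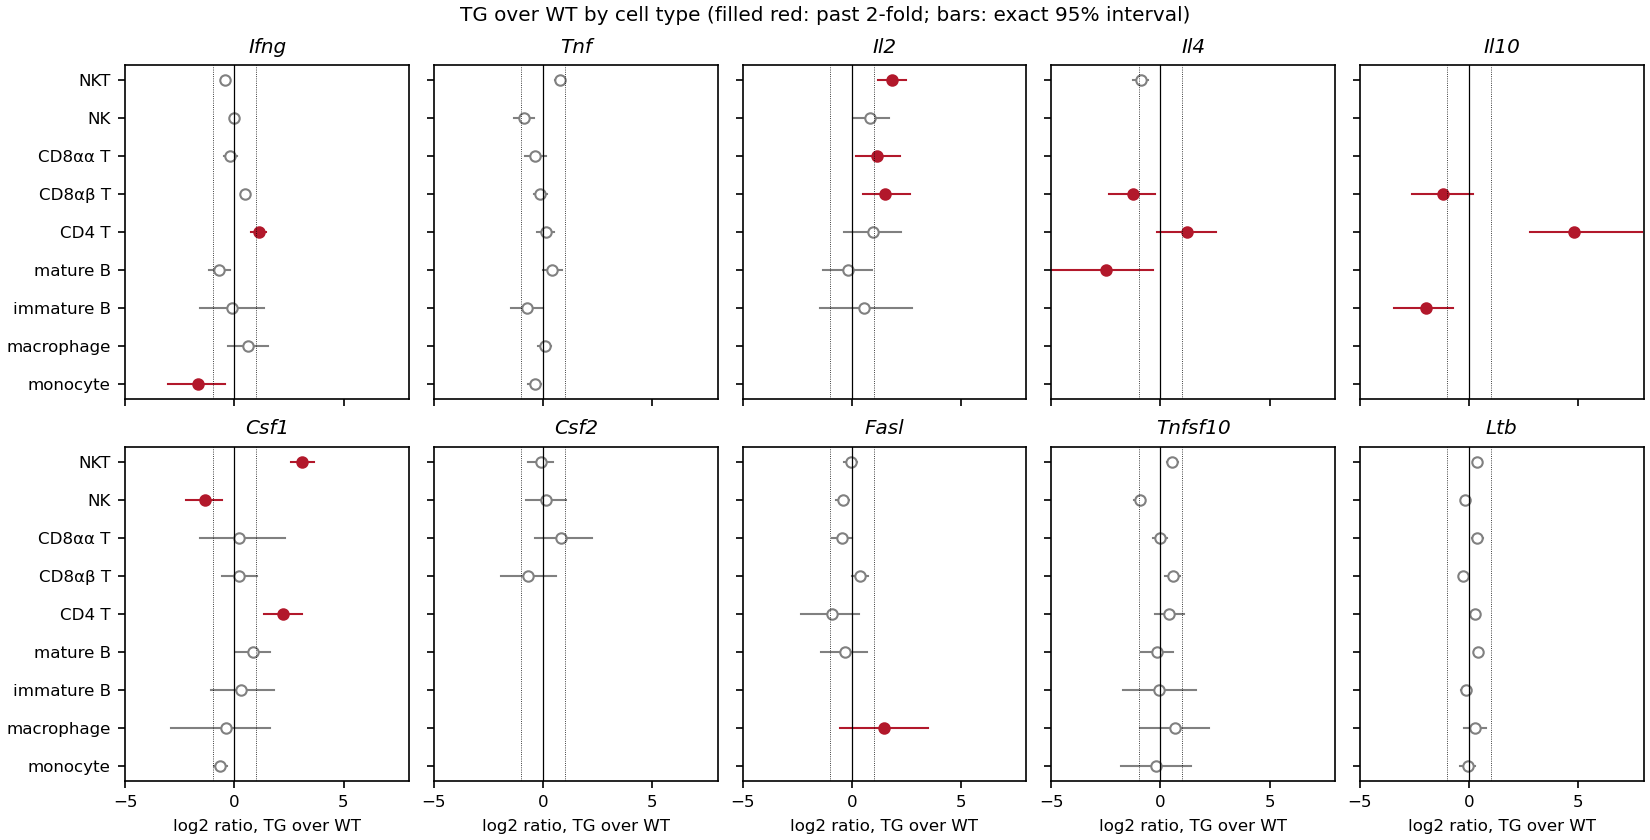
log2 ratio of TG over WT (x axis) of each gene (panels) in each annotated type with at least 50 cells per genotype and at least 10 UMIs, bars being exact 95% intervals and dotted lines marking 2-fold. Filled red points are the 15 pairs past 2-fold, among them Csf1 in NKT cells (3.11) and Il10 in CD4 T cells (4.79), whose bar runs off the right edge.

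More members differed in CD4 T cells than in any other type. Of 9 members with enough UMIs 4 were past 2-fold, all higher in TG, where 7.06% of all genes in CD4 T cells were higher. Ifng was 155 CPM in TG (131 UMIs) and 71.9 CPM in WT (140 UMIs), a log2 ratio of 1.11 (0.75 to 1.46), and a UMI was found in 24.4% and 10.2% of cells. After each cell was thinned to 1000 UMIs the shares were 12.6% and 4.50%. Csf1 was 45.0 against 9.76 CPM (2.20, 1.37 to 3.08) and Il4 13.02 against 5.65 CPM (1.2, -0.14 to 2.55, 11 UMIs each). Il10 was 24 against 2 UMIs, with 6 of the 24 in 1 cell (4.79, 2.78 to 7.91). Clusters 6, 9 and 21 made up 58, 132 and 48 TG cells but 397, 272 and 65 WT cells, and the part of this mix was not tested. In cluster 9, which holds most TG cells, the Ifng log2 ratio was 0.49 (0.11 to 0.87), with 238 CPM in TG and 170 CPM in WT. Fasl was lower there, at 3 against 24 UMIs (-2.36, -4.73 to -0.64). In cluster 6 the Ifng ratio was 2.37 (0.89 to 3.82) on 9 and 10 UMIs. Within the Foxp3 cluster 21, Il10 kept a log2 ratio of 3.59 (1.58 to 6.72) and Csf1 one of 1.45 (0.35 to 2.66).

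NKT cells differed in Csf1 and Il2. Csf1 was 60.04 CPM in TG (106 UMIs) and 6.97 CPM in WT (46 UMIs), a log2 ratio of 3.11 (2.60 to 3.64), and a UMI was found in 12.1% of TG and 1.08% of WT cells. Il2 was 23.8 against 6.66 CPM (1.84, 1.19 to 2.48), while Csf2 was 19.8 against 21.4 CPM (-0.11, -0.68 to 0.44). Ifng and Il4, the signature cytokines of NKT cells, were lower in TG but not past 2-fold, at -0.43 (-0.58 to -0.29) and -0.90 (-1.24 to -0.57), and Tnf was higher at 0.77 (0.53 to 1.01). The annotated NKT cells of TG also held Cd4 at 641 CPM in cluster 0, where WT held 161 CPM, and the part of that mix was not tested.

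Il2 was higher in TG in other T cells too. It was at 59 against 11 UMIs in CD8αα T cells (1.16, 0.21 to 2.23) and 9.43 against 3.26 CPM in CD8αβ T cells (1.53, 0.54 to 2.68). In NK cells it was 21.5 against 11.8 CPM (0.86, 0.07 to 1.71) and in CD4 T cells 0.96 (-0.34 to 2.24). In mature B cells Il2 stood at 4.17 and 4.73 CPM. In NKT, CD8αα, CD8αβ, CD4 T and NK cells the TG level was the higher one, with WT counts of only 10 to 44 UMIs, and the interval for CD4 T cells did not exclude a ratio of 1.

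In CD8αα T cells no other member was past 2-fold. Ltb was higher in TG, at 463 against 355 CPM (0.38, 0.15 to 0.62), and Csf2 stood at 30 against 7 UMIs (0.83, -0.38 to 2.26). Ifng was 257 CPM in TG and 291 CPM in WT (-0.18, -0.46 to 0.10), Tnfsf10 220 and 222 CPM (-0.01, -0.32 to 0.30) and Fasl 87.6 and 118 CPM (-0.43, -0.88 to 0.03). With cells thinned to 1000 UMIs the Fasl ratio turned to 0.57, so its direction was not settled at this depth. The intervals still allow a difference of -0.46 for Ifng and -0.88 for Fasl, and WT cells of this type held more Trdc, as given above. In CD8αβ T cells Ifng was higher in TG at 0.47 (0.28 to 0.67), Tnfsf10 at 0.56 (0.23 to 0.91) and Fasl at 0.39 (0.02 to 0.77), none past 2-fold. The mix of clusters differed here too, with 145 TG and 363 WT cells in cluster 4, 319 and 132 in cluster 7, and 249 and 73 in cluster 12. By cluster the Ifng ratio was 1.89 (1.15 to 2.67) in cluster 4, 0.59 (0.10 to 1.1) in cluster 12, 0.25 (-0.11 to 0.62) in cluster 7, -0.02 (-0.46 to 0.43) in cluster 13 and -0.67 (-1.28 to -0.02) in cluster 18. That of Fasl was 1.2 (0.19 to 2.38) in cluster 12 and -0.19 (-0.92 to 0.59) in cluster 7. Il4 was lower there (15 against 21 UMIs, -1.28), and Il10 (9 against 12 UMIs, -1.21) rested on the 1 WT cell named above, without which WT stood at 0.65 CPM and TG at 1.70 CPM.

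Annotated NK cells must be read with their Cd3e. Over all of them Csf1 was lower in TG at -1.36 (-2.21 to -0.56), Tnfsf10 was lower at -0.95 (-1.21 to -0.69) and Ifng did not differ by more than 0.18 either way (0.00, -0.17 to 0.18). In cluster 8, low in Cd3e in both, Tnfsf10 was at 10 and 8 UMIs and Ifng at -0.06 (-0.35 to 0.23). In clusters 3 and 11, where TG cells held Cd3e, the Tnfsf10 log2 ratio was -1.44 (-1.70 to -1.17) and that of Tnf -1.34 (-1.84 to -0.85), but cluster 11 held 343 TG and only 22 WT cells. In cluster 3 alone, with 263 and 306 cells, they were -0.86 (-1.15 to -0.56) and -0.60 (-1.14 to -0.07), neither past 2-fold, and that of Csf1 was -1.63 (-2.75 to -0.63). The remaining pairs past 2-fold had low counts. Il10 in annotated immature B cells was 7 against 23 UMIs (-1.98), Ifng in annotated monocytes 8 against 22 (-1.65), Il4 in mature B cells 2 against 12, 11 of them in cluster 17 (-2.49), and Fasl in macrophages 6 against 5 (1.46, -0.52 to 3.51).

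The receptors of these ligands had their own distribution. Il2rb was highest in NKT cells at 2548 CPM, Csf1r in macrophages at 468 CPM, Csf2rb in basophils at 2783 CPM and Il10ra in macrophages at 173 CPM. Ifngr1 was 427 CPM in NK and 362 CPM in NKT cells, whereas Ifngr2, the signalling chain, was 130 CPM in annotated monocytes and only 2.87 CPM in NKT, 2.31 CPM in NK and 3.73 CPM in CD8αα T cells. Fas was highest in annotated monocytes at 109 CPM, and the TRAIL receptor Tnfrsf10b reached only 10.6 CPM, in NKT cells. Of 138 receptor and type pairs, 19 were higher and 5 lower in TG past 2-fold (17.4%, against 10.4% of all gene and type pairs). In CD4 T cells these included Il2ra (176 against 49.3 CPM), Il2rb (968 against 400 CPM) and Tnfrsf1b (121 against 38.0 CPM) in the type in which Ifng and Csf1 were also higher. Csf1r was among the higher pairs in CD4 T, CD8αβ T, NKT, NK, mature B and immature B cells. Its levels there were low, at 14.9 to 27.0 CPM in TG and 4.54 to 8.63 CPM in WT, far below those of macrophages.

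Target genes of interferon-γ were higher in TG most often in annotated monocytes, macrophages and mature B cells. Of 135 pairs over 16 genes, 31 were higher and 2 lower in TG past 2-fold (24.4%), with a median log2 ratio of 0.39. Over all gene and type pairs 10.4% passed 2-fold, 5.57% higher and 4.79% lower in TG. Annotated monocytes, in which 14.4% of all genes were past 2-fold either way, had 10 of 15 higher, with Gbp2 at 759 against 86.1 CPM and Cd274, which encodes PD-L1, at 318 against 70.8 CPM. Macrophages had 7 of 16 higher, where 13.1% of all genes were past 2-fold either way, and mature B cells 6 of 15, where 6.73% were. CD8αβ T cells had 0 of 15, where 9.34% were, so that count lies near the share of all genes. Cxcl10, a chemokine target, was lower in TG macrophages, at 57.2 against 216 CPM. Annotated macrophages differed in make-up: cluster 27 held 23 WT and no TG cells, 5 macrophage markers summed to 670 CPM in TG and 1228 CPM in WT, 5 monocyte markers to 4437 and 8321 CPM, and 4 dendritic cell markers to 604 and 907 CPM. In annotated monocytes 5 neutrophil markers summed to 62506 CPM in TG and 42394 CPM in WT, and 3 plasma cell markers to 542 and 153 CPM. In mature B cells 6 T cell markers summed to 469 and 1078 CPM. The part of these mixes in the target values was not tested. Ifng transcript was higher in TG in CD4 and CD8αβ T cells and lower in NKT cells, as given above. Its part in the target values was not tested.

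Each of the other lists held pairs past 2-fold. Of the further lymphocyte ligands 15 of 18 were in the table, and without the 3 that the authors' filter had set to 0 in TG (Il13, Il17a and Il22) 68 pairs were compared, 3 higher and 13 lower in TG. With those 3 genes it was 26.8% of 71 pairs past 2-fold, against 10.4% of all gene and type pairs. Of all pairs, 5.57% were higher and 4.79% lower in TG. The share of all pairs was 10.1% with genes set to 0 in one genotype left out. Cd40lg was higher in annotated NK cells (88 against 8 UMIs), in which 6 T cell markers summed to 4576 CPM in TG and 2136 CPM in WT and Cd4 stood at 312 and 17.4 CPM, and Tnfsf9 was lower in macrophages (17 against 133 UMIs). For Il17a the library file held 18 UMIs in 7 TG cells, so the 0 in the filtered table is a filter. The list of factors that bind or break down mRNAs, Elavl1 among them, had 90 pairs with 3 higher, all Zc3h12d, and none lower (3.33%). Its median was -0.22. Zfp36 was highest in basophils at 10522 CPM and annotated monocytes at 9354 CPM. Transcription factors had 153 pairs with 6 higher and 8 lower (9.15%), near the 10.4% of all genes. Tbx21 was higher in TG in CD8αβ T cells (209 against 60.7 CPM) and CD4 T cells (88.8 against 34.4 CPM), and Eomes was lower in annotated NK cells (139 against 333 CPM). By cluster, Eomes was lower in TG in cluster 8, by under 2-fold, and not lower in clusters 3 and 11, as the values above show. The mix of these clusters differed between genotypes, and its part in the NK value was not tested.

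The unnamed cells allowed a comparison inside each library. Their genotype is not given, and the pools hold a second mouse line each. Labelled alleles were checked first, in T and NK cells picked by markers. Il2ra was 7.97 CPM in unnamed and 86.3 CPM in named WT cells of the second pool, which held mice without that gene. Il12b, the p40 gene that this line also lacks by its name, was found as 100 UMIs in 98 unnamed cells (2.17 CPM) and 12 UMIs in 6 WT cells (0.87 CPM). Over all cells of the pool it was the other way, at 2.59 CPM in unnamed (168 UMIs) and 3.87 CPM in WT cells (86 UMIs), so Il12b gave no check of the label in a single direction. The Il2ra values came from unlike mixes. With named genotypes summed, Il2ra was 142 CPM in NKT cells and 15.2 CPM in CD8αβ T cells. As given below, fewer unnamed than WT cells were nearest to NKT cells and more to CD8αβ T cells. The part of this mix in the Il2ra values was not tested. Tgfbr2 was 346 CPM in named TG cells, against 159 CPM in the unnamed cells of the first pool and 157 to 160 CPM in the second. The transgene is human and reads were mapped to the mouse genome mm10, so Tgfbr2 is the mouse gene. Whether any of its UMIs came from the transgene was not tested.

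In the first pool, which held IFN-γ ARE-Del-/- mice, Ifng was 317 CPM in 2478 unnamed and 218 CPM in 2371 TG cells, a log2 ratio of 0.54 (0.45 to 0.62). An Ifng UMI was found in 49.0% and 40.3% of cells at nearly equal depth, with medians of 3279.5 and 3276 UMIs. B cells of the same library held 11.2 and 9.35 CPM. No member was past 2-fold (0 of 10), and 7.13% of all genes were. Cells were then given the type of their nearest named cells, a rule that returned the annotated type of 92.6% of held-out TG cells and 93.96% of held-out WT cells. Only named cells were held out, so how often unnamed cells were typed rightly is not known. Ifng was then higher in unnamed CD8αβ T cells by 0.93 (0.81 to 1.06), NK cells by 0.64 (0.48 to 0.80), CD8αα T cells by 0.50 (0.32 to 0.69) and NKT cells by 0.43 (0.26 to 0.60). In CD4 T cells the ratio was -0.32 (-0.66 to 0.03). Markers alone gave 0.78 (0.63 to 0.94) in T cells with Cd8a UMIs and 0.15 (-0.01 to 0.31) in T cells with Cd4 UMIs. Tnf was higher by 0.52 over all T and NK cells, and Il2 was lower at -0.75 (-1.11 to -0.39). Il10 was found as 68 UMIs in 465 unnamed cells nearest to macrophages and none in 109 TG cells, with 35.3% of the 68 in 3 cells. Of the 16 interferon-γ targets 1 was past 2-fold, Iigp1 at 77.0 against 25.8 CPM, and the median log2 ratio was 0.51, against 0.04 over all genes. In the second pool 1 of the 16 was past 2-fold, lower in unnamed cells, and the median was -0.13, against -0.09 over all genes.

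In the second pool, which held P40-/-IL-2Ra-/- mice, the direction was the other way over all T and NK cells. Ifng was 160 CPM in 12352 unnamed and 241 CPM in 4633 WT cells (-0.59, -0.65 to -0.53). The mix of cells differed, with 61.8% of unnamed cells nearest to CD8αβ T cells against 11.2% of WT cells, and 4.99% nearest to NKT cells against 30.7%. Within types Ifng was higher in unnamed CD8αβ T cells by 0.55 (0.38 to 0.72) and CD4 T cells by 0.70 (0.43 to 0.99), lower in NKT cells at -0.42 (-0.55 to -0.30), and not separable in NK cells (-0.04, -0.25 to 0.17). The rule for picking cells mattered here: T cells with Cd8a and without Cd4 UMIs gave -0.02 (-0.18 to 0.14), and T cells with Cd4 and without Cd8a UMIs gave -0.13 (-0.26 to -0.01). The pooled difference was thus not seen in CD8 T cells under either rule. Of 10 members 4 were past 2-fold, 2 in each direction, and 15.1% of all genes were. Il4 was 3.41 against 44.3 CPM (-3.70) and Csf2 1.91 against 13.1 CPM (-2.77), while Il10 was 9.30 against 1.30 CPM (2.84, 428 against 18 UMIs) and Csf1 23.6 against 9.46 CPM (1.32). Il4 was lower also within cells nearest to NKT cells, at 39.6 against 90.6 CPM (-1.19), and Il10 was higher there, at 42 UMIs (52.4% of them in 3 cells) against 3. Il10 was also higher in cells nearest to CD8αβ T cells, at 9.24 against 3.91 CPM (1.24, 0.42 to 2.21), where WT stood at 0.65 CPM without the 1 cell named above. The T cells with Cd4 UMIs held 199 Il10 UMIs in 2160 unnamed cells and 1 in 1173 WT cells. Only 1314 unnamed cells were nearest to CD4 T cells, so some T cells with Cd4 UMIs were placed in other types.

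**Figure D4:**
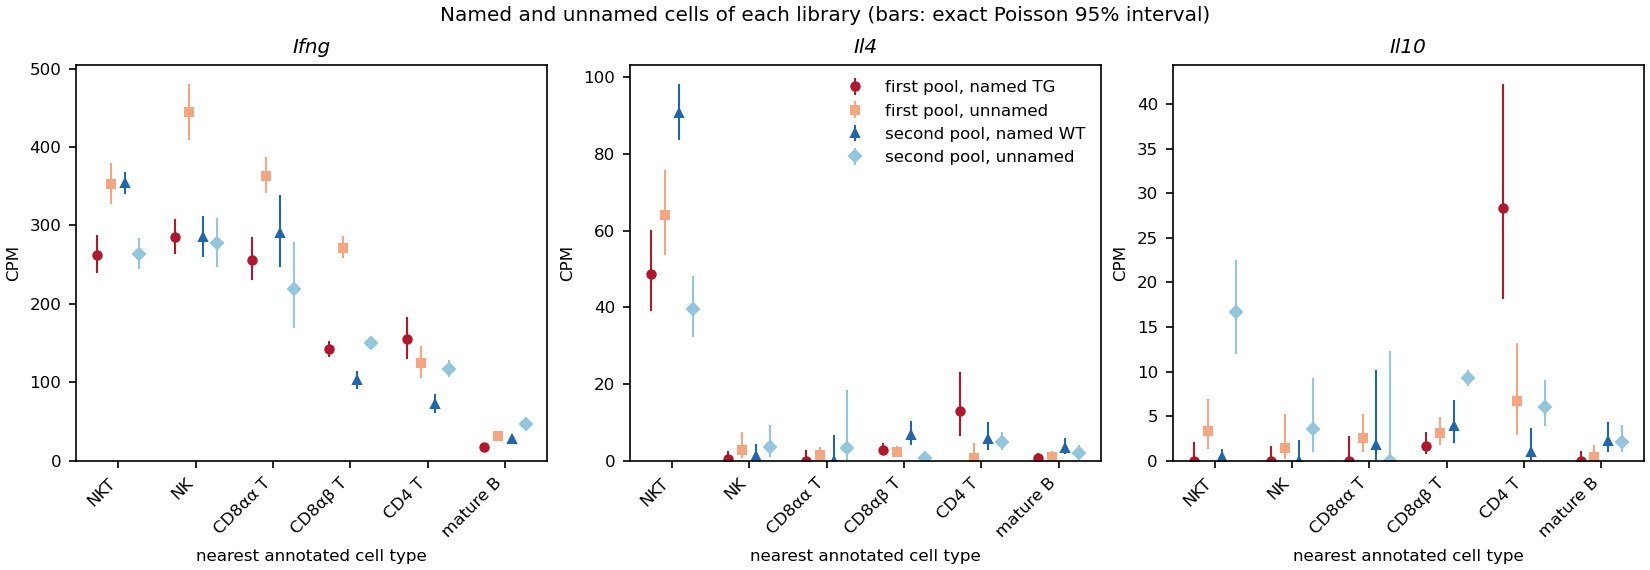
CPM of Ifng, Il4 and Il10 (panels) in named and unnamed cells of both libraries by nearest annotated type, bars being exact Poisson 95% intervals. Unnamed cells of the first pool stand above named TG cells for Ifng in NKT, NK, CD8αα and CD8αβ T cells (272 against 142 CPM in the last). Among the types shown, named WT NKT cells are highest for Il4, and named TG CD4 T cells are highest for Il10.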

How the data were processed

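Liver CD45+ cells of 2 pooled libraries were profiled on the BD Rhapsody system. Per the labels and the methods of the study, the authors mapped reads to mm10 with STAR in the BD Rhapsody pipeline (version 1.9 in the file headers). The deposited tables hold UMI counts per gene and cell, after the authors' correction of sequencing errors. The filtered table holds UMI counts of 11929 cells, and the authors' filter on cells is not given in the sources used here. In it, 576 genes are at 0 in every TG cell and 344 in every WT cell although the library files hold UMIs of them there. None of the 10 genes was affected. The deposited antibody values are natural log centred ratios, computed by the authors. Cell types and clusters are the authors' annotation after canonical correlation integration in Seurat.

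UMI counts were summed per genotype and cell type or cluster and given as CPM. Pairs with at least 10 UMIs over both groups were compared, in types with at least 50 cells per genotype, with a pseudocount of 0.5 UMIs for the 2-fold rule. Ratios printed carry no pseudocount. Since a genotype is 1 library, no difference was tested, and it is not stated how many animals a library holds. T and NK cells of the library files had at least 2 UMIs of Cd3d, Cd3e, Cd3g, Trbc1, Trbc2, Ncr1 and Klrb1c and fewer than 2 of B cell and of myeloid genes. Nearest types came from 15 nearest named cells in 30 components of 2000 variable genes. Doublets were called per genotype with Scrublet in scanpy 1.11.5, which marked 0.839% of TG and 3.32% of WT cells. They were kept, and left out in an alternative. Other alternatives were TMM factors (edgeR 4.0.16, R 4.3.3), totals without ribosomal protein and mitochondrial genes, equal weight per cell, thinning to 1000 UMIs, other minimum counts and folds, clusters in place of types and leaving out the 3 cells with most UMIs. A further 3 were added after seeing the data: NK cluster 8 alone, no cluster 17, and only pairs whose interval excludes a ratio of 1.

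The members and gene lists were chosen with earlier results of these data known. Genes named in the text are the 10 members and, for each, the 3 genes of most similar cluster pattern (at least 200 UMIs in all). They also include cell type markers and members of 5 lists (receptors, further ligands, mRNA-binding and decay factors, transcription factors and interferon-γ targets). Which genes of the lists are named was decided with their values known. UTRs came from GENCODE vM21 and promoters from RefSeq (GRCm38.p6), where all 10 and 9 of the 10 genes matched. The ratio functions were tested on simulated data. Calculations used scikit-learn 1.9.0, scipy 1.17.1, numpy 2.4.6 and pandas 2.3.3 in Python 3.11.15.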

Additional observations from a re-analysis of the deposited data

How the results depend on the processing

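The count of 15 member and type pairs past 2-fold was 10 to 18 under TMM factors, totals without ribosomal protein and mitochondrial genes, equal weight per cell, no doublets, thinned cells, the library files, at least 30 UMIs, no 3 highest cells, NK cluster 8 alone, no cluster 17, and intervals excluding 1. It was 26 with at least 1 UMI, 30 past 1.5-fold and 23 over clusters, where other pairs are counted. The Ifng log2 ratio of unnamed over TG cells (0.54) was 0.37 with equal weight per cell. That of unnamed over WT cells (-0.59) was -0.47 with TMM factors, -0.39 with equal weight, -0.42 with thinned cells and -0.51 without the 3 cells with most Ifng. The cause of these shifts was not tested, and neither ratio changed its direction. For the single genes tried, 65 of 69 alternatives moved less than the interval, and 4, all with thinned cells, moved more: Ifng in NKT cells to -0.28, Tnf in annotated monocytes to -0.84, Fasl in CD8αα T cells to 0.57 from -0.43, and Tnfsf10 in CD8αα T cells to -0.47. Without the 3 cells with most UMIs Il10 gave no value. No paired analysis was possible because each genotype is 1 library, and for the same reason no library could be left out. The depth, a median of 3298 UMIs in TG and 2653.5 in WT cells, limits rare transcripts such as Il2, Il10 and Csf2, with at most 241 UMIs of any of them in a genotype.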
